A study of Mus musculus with 2 samples.

Results

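The variable genes of the T cell receptor were followed here in the T cells of RM-1 tumours. These are the genes whose symbol starts with Trbv (beta chain) or Trav (alpha chain), 163 of the 32285 genes counted: 35 Trbv genes and 128 Trav genes. RM-1 is a mouse prostate cancer line. It was grown under the skin of C57BL/6 mice given either vehicle or RP-6306, which blocks the kinase PKMYT1. Tumours were collected at day 10 after the start of treatment; the labels give the genotype of both groups as WT and no age or sex. From the dissociated tumours, CD45+ leukocytes were sorted and put back with tumour cells at 3 parts to 1, so the numbers of T cells among all cells were set in part by that mixing. Each group was 1 droplet single-cell library. How many mice stood behind each library is not clear from the labels, and no test between the groups was possible. Differences between the libraries are given with intervals that cover at most the counting error of cells or UMIs. Mouse, library and treatment cannot be told apart.

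A T cell receptor is a pair of chains, in most T cells an alpha and a beta chain, and each chain starts with a variable segment that is cut and joined to a joining segment in the thymus. The variable segment supplies most of the surface that touches the major histocompatibility complex (MHC). CD8 T cells read peptides on MHC class I and kill, CD4 T cells read MHC class II and help, and regulatory T cells, marked by Foxp3, restrain the others. Naive T cells carry a broad mixture of variable genes. A clone that divides adds cells with 1 alpha and 1 beta chain, so a variable gene pair can become frequent among effector cells, but a shared variable gene does not show a shared clone, because the joined region that tells clones apart was not read here.

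The 7 variable segments printed here matter for the results below, as the pairs that short sequences must tell apart or as the genes whose use differed most between T cell classes. The coding parts are those of the GENCODE annotation of GRCm38, the assembly of mm10, read 5′ to 3′ on the coding strand. In the first pair, both on chromosome 6 and the plus strand, Trbv12-1 (chr6:41113550-41114067) and Trbv12-2 (chr6:41118851-41119364) differ at 44 of 372 bases, an identity of 88.2%. The last 300 bases of each are shown, and capitals mark the 32 differences in them.
Trbv12-1: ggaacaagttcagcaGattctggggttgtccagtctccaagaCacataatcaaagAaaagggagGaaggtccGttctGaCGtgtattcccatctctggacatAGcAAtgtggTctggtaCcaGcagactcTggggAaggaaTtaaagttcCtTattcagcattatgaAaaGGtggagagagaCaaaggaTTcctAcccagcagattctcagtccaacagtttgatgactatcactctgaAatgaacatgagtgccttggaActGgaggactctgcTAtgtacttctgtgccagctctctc
Trbv12-2: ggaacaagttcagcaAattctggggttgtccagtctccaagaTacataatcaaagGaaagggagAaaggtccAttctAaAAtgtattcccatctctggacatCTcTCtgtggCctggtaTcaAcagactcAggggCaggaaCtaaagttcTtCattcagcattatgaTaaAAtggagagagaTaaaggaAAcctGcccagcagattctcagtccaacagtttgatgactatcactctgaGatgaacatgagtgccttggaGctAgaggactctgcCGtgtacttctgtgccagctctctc
In the second pair, on the plus strand of chromosome 14, Trav16 (chr14:53743104-53743705) and Trav16n (chr14:53351028-53351621), a member of a duplicated block of the locus, were identical at 345 aligned bases and mismatched at 5. Capitals mark the 4 mismatches in the last 300 bases, which are shown. No deposited value says from which part of the segment a read came, so UMIs of such a pair may be split between the copies.
Trav16: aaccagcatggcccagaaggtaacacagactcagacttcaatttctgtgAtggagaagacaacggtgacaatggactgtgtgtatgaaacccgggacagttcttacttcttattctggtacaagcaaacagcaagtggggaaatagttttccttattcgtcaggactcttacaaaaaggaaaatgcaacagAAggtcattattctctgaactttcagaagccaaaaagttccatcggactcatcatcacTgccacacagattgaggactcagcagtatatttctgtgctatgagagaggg
Trav16n: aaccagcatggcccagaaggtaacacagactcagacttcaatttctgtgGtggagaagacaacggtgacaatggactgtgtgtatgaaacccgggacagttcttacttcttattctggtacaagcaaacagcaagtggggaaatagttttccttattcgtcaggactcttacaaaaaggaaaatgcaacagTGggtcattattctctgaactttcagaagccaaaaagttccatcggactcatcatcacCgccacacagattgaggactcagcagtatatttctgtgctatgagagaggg
Of the next 3, the last 150 bases are shown, and capitals mark the stretch from the last in-frame cysteine codon to the end of the segment, where the joined region of the chain begins. Trbv31 (chr6:41557691-41558452) was the only member of the Trbv locus on the minus strand; it lies beyond the constant genes and joins by inversion. Trbv29 (chr6:41271394-41271881, plus strand) was the most used beta segment of Cd8+ effector cells in the vehicle library. Trav1 (chr14:52427928-52428876, plus strand) is the alpha segment of mucosal-associated invariant T cells.
Trbv31: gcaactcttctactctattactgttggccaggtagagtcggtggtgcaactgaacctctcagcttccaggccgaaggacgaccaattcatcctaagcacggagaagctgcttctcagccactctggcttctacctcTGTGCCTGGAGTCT
Trbv29: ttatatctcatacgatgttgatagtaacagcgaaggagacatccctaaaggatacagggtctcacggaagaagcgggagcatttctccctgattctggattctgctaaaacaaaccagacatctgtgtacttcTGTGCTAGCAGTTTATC
Trav1: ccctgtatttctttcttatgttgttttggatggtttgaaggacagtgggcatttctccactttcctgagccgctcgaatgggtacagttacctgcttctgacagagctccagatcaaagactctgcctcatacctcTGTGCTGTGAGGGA

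All 163 members were found in the annotation, the Trbv genes between 40891229 and 41558452 on chromosome 6 and the Trav genes between 52427928 and 53977678 on chromosome 14. A unique molecular identifier (UMI) stands for 1 captured RNA molecule. Of the 35 Trbv genes, 26 had a UMI in the cells kept and 22 had at least 20. The 9 Trbv genes at 0 UMIs were all annotated pseudogenes, of 13 Trbv pseudogenes in all, and pseudogenes held 0.499% of Trbv UMIs. Of the 128 Trav genes, 95 had a UMI and 69 had at least 20. The 33 Trav genes at 0 included 23 of the 108 that are not annotated as pseudogenes. Here the duplication of the locus showed: 35 Trav genes had no stretch of 50 bases of their own, and 20 of these were at 0 UMIs, whereas of the 41 Trav genes with more than 50% of such stretches unique, 1 was at 0 and the median was 139 UMIs. The 55 Trav genes with plain names held 75.7% of Trav UMIs, the 39 with a d in the name 10.5% and the 34 with an n 13.8%. Use of the alpha chain is therefore given by family (the number after Trav, all copies together), and single Trav genes are named as uncertain. Of the 26 Trbv genes with a UMI, Trbv1, Trbv13-2, Trbv16, Trbv13-1, Trbv3, Trbv13-3, Trbv15 and Trbv12-2 together held 64.9% of Trbv UMIs. Of the 95 Trav genes with a UMI, the 8 with most UMIs held 28.8% of Trav UMIs. The chains have unlike numbers of genes, so these 2 shares do not compare how concentrated their use was.

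The vehicle library held 135415063 UMIs over 17313 barcodes and the RP-6306 library 158073632 UMIs over 15909 barcodes. After filtering, 16082 and 14916 cells were kept, with medians of 3117 and 2847 UMIs. In these, 17087 and 20389 UMIs were from Trbv genes and 5793 and 7792 from Trav genes, against 9 and 8 from the joining segments of the alpha chain. The labels name a 3′ protocol, yet variable-gene UMIs were about as many as those of the constant genes, as given below. The libraries shared 327 barcodes among kept cells. Of these, 51 had the same class in both, 40 had a Trbv gene in both and 6 had the same one. Without them, each share recomputed stayed within its interval and each count or effective number within 1.5 times.

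T cell classes were clusters formed without any antigen receptor gene, so variable genes took no part in them. Naive-like CD8 cells (1762 vehicle, 1867 RP-6306) had Cd8a at 221 CPM (counts per 1000000 UMIs) and Cd4 at 2.36 CPM in their main cluster, T6. Naive-like CD4 cells (1580 and 2759) had Cd4 at 219 CPM in the cluster T2, which held 1137 of the vehicle cells, and at 261 CPM in the cluster T4, which held 1900 of the RP-6306 cells; the CD4 classes of the libraries thus came mainly from different clusters. Memory CD8 T-like cells (460 and 264) were led by Ly6c2 and Gzmm. Regulatory T-like cells (338 and 230) were of 2 kinds, an activated cluster T0 with Foxp3 at 194 CPM and Tnfrsf9 among its leading genes (166 and 42 cells), and a shallow cluster T5 with Foxp3 at 69.8 CPM, Ccr7 at 223 CPM and a median of 1493 UMIs (172 and 188 cells). Effector T-like cells (207 and 83), with Gzmk, Pdcd1 and Havcr2 among their leading genes, held both Cd8+ (79 and 37) and Cd4+ (71 and 25) cells. Interferon T-like cells (175 and 284) were led by Ifit3, Ifit1 and Isg15. A cluster with natural killer receptor genes such as Klra7, Klra6 and Klra1 among its leading genes (206 and 107 cells) had Cd8a at 40.5 CPM and Cd4 at 0; it is called the NK receptor T cluster. Clusters that carried both T and B cell markers (1533 and 1139 cells) were left out of the T classes, as was a small unnamed T cluster.

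A beta segment was seen in most T cells and an alpha segment in about as many as not. Among naive-like CD8 cells, 82.0% (80.1 to 83.7) of the vehicle and 84.1% (82.4 to 85.8) of the RP-6306 cells had a Trbv UMI, and 44.3% and 51.7% had a Trav UMI. Naive-like CD4 cells had a Trbv UMI in 79.8% and 81.5% and a Trav UMI in 52.2% and 57.7%. Memory CD8 T-like cells reached 84.8% and 86.4% for Trbv, and effector T-like cells 77.8% and 77.1%. The activated regulatory cluster was lower, at 66.9% and 66.7%, and the shallow regulatory cluster lower still, at 25.6% (19.2 to 32.8) in vehicle and 45.7% (38.5 to 53.2) in RP-6306. Depth differs between classes, so cells with at least 2000 UMIs were also thinned to 2000, and shallower cells were left out. This left out 807 of 2759 naive-like CD4 cells with RP-6306. In the shallow regulatory cluster it left out 141 of 172 vehicle and 144 of 188 RP-6306 cells. Thinned values are thus from a deeper set of cells than the values above. Trbv detection was then 73.8% and 78.7% in naive-like CD8, 73.5% and 79.3% in naive-like CD4, 60.8% and 66.7% in the activated and 38.7% and 70.5% in the shallow regulatory cluster, the last from 31 and 44 cells.

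Cells that should lack a rearranged receptor give a background. Whether it came from free RNA or from doublets was not tested. Among B-like cells (median 2168 and 1933 UMIs), 2.62% of vehicle and 0.982% of RP-6306 cells had a Trbv UMI and 0.769% and 0.404% a Trav UMI. Macrophage and monocyte-like cells, deeper at medians of 5744 and 7152 UMIs, had one in 2.99% and 9.51% (7.37 to 12.0) for Trbv. In RP-6306 these were 178 UMIs in 62 cells, 24.2% of which held more than 1 Trbv gene. Vehicle B-like cells had 99 UMIs in 92 cells. NK-like cells are innate killers without a receptor of this kind. They held constant beta genes at 358 and 397 CPM, but Trbv genes at 20.7 and 45.2 CPM, and a Trbv UMI was seen in 4.39% and 4.23% of them. Their constant-gene UMIs were thus mostly not matched by variable-gene UMIs, unlike in every T class below. The gamma delta T-like cluster (45 and 17 cells) had a Trbv UMI in 44.4% and 41.2% of cells and a Trav UMI in 17.8% and 11.8%.

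**Figure D1:**
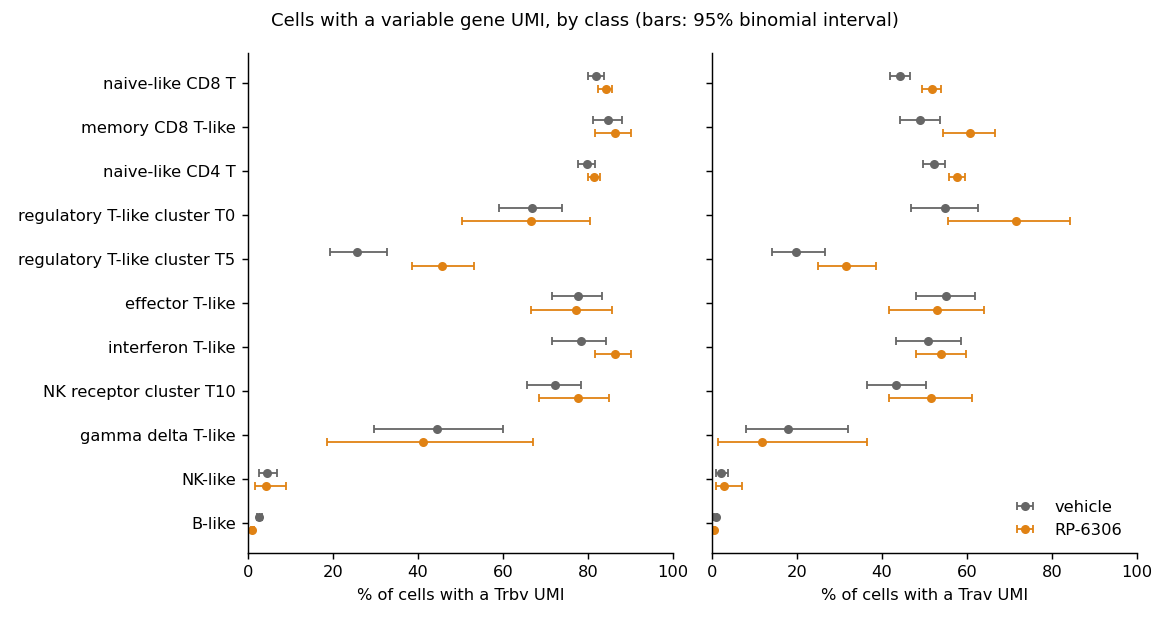
Share of cells with at least 1 Trbv UMI (left) or Trav UMI (right) for each cell class, in percent of its cells, with exact 95% binomial intervals, one colour per library. Naive-like CD8 cells sit at 82.0% and 84.1% for Trbv, the shallow regulatory cluster T5 at 25.6% and 45.7%, and B-like cells at 2.62% and 0.982%.

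Variable and constant genes of the same chain were set side by side, since both parts lie on the same messenger RNA. In naive-like CD8 cells, the vehicle library had 4729 Trbv and 4533 Trbc1 plus Trbc2 UMIs, a ratio of 1.04, and the RP-6306 library had 5927 and 4623, a ratio of 1.28. Naive-like CD4 cells had 0.972 and 1.20, regulatory T-like cells 1.03 and 1.21, and effector T-like cells 1.16 and 1.49. For the alpha chain, Trav over Trac was 0.897 and 1.18 in naive-like CD8 and 1.01 and 1.24 in naive-like CD4 cells. Both ratios were higher in the RP-6306 library in each of the 7 T classes with 50 or more cells in both libraries. As a level, Trbv genes summed to 871 and 1135 CPM in naive-like CD8 cells while Trbc1 and Trbc2 summed to 835 and 886 CPM. The 2 libraries thus differed in how many variable-gene UMIs came with each constant-gene UMI. Whether capture or read mapping differed between them was not tested. Every level of a single variable gene compared between the libraries carries this difference, while shares of cells among those assigned a gene do so only through detection.

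Some cells carried UMIs of more than 1 Trbv gene, which bears on how a cell is assigned. Over 8692 T cells with a Trbv UMI and 190 pairs of Trbv genes, the median number of cells with both genes was 0.324 times the product of the single shares. The largest excess was Trbv12-2 with Trbv13-2, found together in 285 cells against 93.1 from the product. Trbv13-2 is the next gene along the plus strand after Trbv12-2, and in these cells Trbv13-2 had more UMIs in 175, Trbv12-2 in 34 and neither in 76. Trbv13-2 and Trbv13-3, identical at 90.6% of aligned bases, were together in 151 cells against 79.2. Trbv12-1 with its neighbour Trbv13-1 was found in 29 cells against 29.8, a ratio of 0.973, which was also above the median of 0.324. A cell was assigned its Trbv gene with most UMIs, and ties were left unassigned, so UMIs of Trbv12-2 beside more UMIs of Trbv13-2 were counted for the latter.

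CD8 and CD4 cells used different beta segments, and did so in both libraries. Shares are of cells assigned a Trbv gene: 1373 and 1480 naive-like CD8 and 1200 and 2153 naive-like CD4 cells. Trbv12-1 was used by 9.03% (7.57 to 10.7) of vehicle and 8.18% (6.83 to 9.69) of RP-6306 CD8 cells, and by 2.0% (1.29 to 2.96) and 1.30% (0.866 to 1.87) of CD4 cells. Its relative Trbv12-2 had 7.72% and 6.76% in CD8 and 3.17% and 2.37% in CD4 cells. Trbv29 had 6.85% and 6.35% in CD8 and 1.83% and 2.28% in CD4 cells. Trbv14 (3.71% and 4.05% against 1.5% and 1.39%) and Trbv17 (3.86% and 2.97% against 1.67% and 1.16%) were used less overall but tilted the same way. These 5 of the 21 Trbv genes compared were at least 2-fold higher in CD8 in both libraries, and for each the 95% intervals of the CD8 and CD4 shares did not overlap in either library. Under other settings, Trbv17 was under 2-fold in RP-6306 with gates on single cells (log2 0.65), and Trbv14 in vehicle without doublet removal (0.98) and with at least 2 UMIs of the assigned gene (0.98).

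On the CD4 side, Trbv31, the inverted segment, was used by 8.75% (7.21 to 10.5) and 8.96% (7.79 to 10.3) of CD4 and by 2.11% (1.42 to 3.02) and 2.97% (2.17 to 3.97) of CD8 cells. Trbv2 had 3.92% and 3.58% in CD4 and 1.38% and 1.76% in CD8 cells. These were the 2 genes at least 2-fold higher in CD4 in both libraries; Trbv2 was under 2-fold in at least 1 library under some other settings, as given in the closing part. Trbv3, the most used beta segment of CD4 cells at 11.1% and 10.9%, had 7.14% and 6.35% in CD8 cells, with intervals apart in both libraries but under 2-fold. Trbv16 was the most used segment of CD8 cells at 9.54% and 8.85%, against 5.92% and 6.55% in CD4 cells, and its intervals were apart in the vehicle library only. Trbv20 was 2.62% and 1.96% in CD8 against 4.33% and 5.39% in CD4 cells, apart in the RP-6306 library only. Trbv1, Trbv13-3 and Trbv19, each between 6.41% and 9.10% in both classes, had overlapping intervals.

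**Figure D2:**
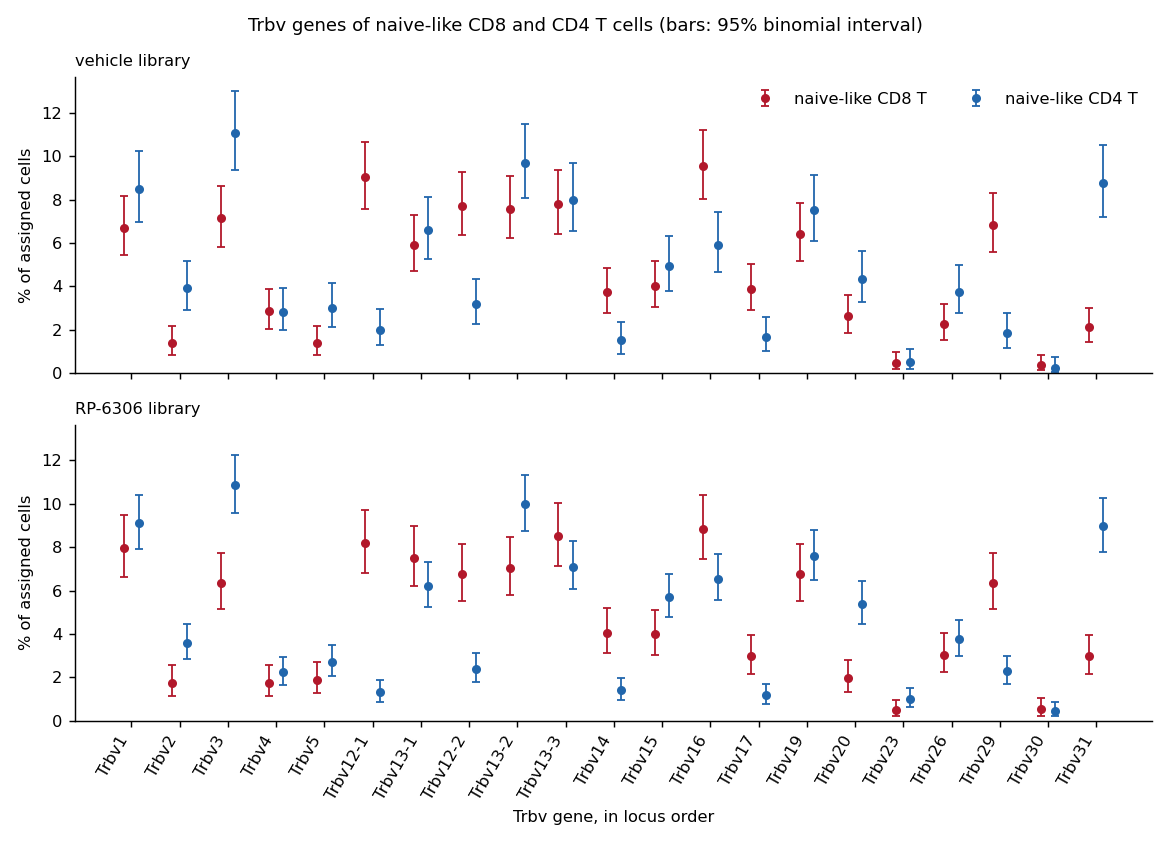
Share of naive-like CD8 (red) and CD4 (blue) T cells assigned to each Trbv gene, in percent of the assigned cells, with exact 95% binomial intervals; the vehicle library is above and the RP-6306 library below. Trbv12-1 is at 9.03% of CD8 and 2.0% of CD4 cells in the vehicle library, and Trbv31 at 2.11% and 8.75%.

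The same contrast was tested across all genes on UMIs summed per class and library, with edgeR's quasi-likelihood test and library as a term. This test was chosen after the shares had been seen. It has 1 residual degree of freedom before edgeR's moderation, treats the 2 libraries as replicates of a class although their treatment differs, and so measures only how well the class difference repeats between them. Of 11186 genes, 10.2% were higher and 12.3% lower in CD8 cells at an adjusted p under 0.05. Of the 77 members tested, 9 were higher and 31 lower, so the share lower was above and the share higher near that of all genes. The chains as a whole differed too: Trav genes summed to 235 and 349 CPM in CD8 and to 365 and 525 CPM in CD4 cells, and Trac stood at 261 and 297 against 362 and 425 CPM. Lower levels of single genes include this difference. Trbv12-1 stood at 67.2 and 82.2 CPM in CD8 and 19.4 and 13.5 CPM in CD4 cells, a log2 difference of 2.23 (SE 0.12, edgeR quasi-likelihood, Benjamini-Hochberg adjusted p = 2.5e-49). Trbv29 was higher by 1.25 (SE 0.11, edgeR adjusted p = 1.7e-23) and Trbv31 lower, at a log2 difference of -1.87 (SE 0.11, edgeR adjusted p = 7.5e-43). Trbv14, Trbv17, Trbv12-2 and Trbv16 rose by log2 1.31, 1.21, 1.01 and 0.68, and Trbv2, Trbv3 and Trbv20 fell by 1.31, 0.86 and 1.14. DESeq2 on the same sums called fewer members, 6 higher and 10 lower of 113 tested. Over all 19750 genes it called 275 higher and 353 lower, so both member shares were above those of all genes there.

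The alpha families showed 1 clear difference in each direction. The Trav16 family was assigned to 10.7% (8.49 to 13.2) and 8.93% (7.11 to 11) of naive-like CD8 cells but to 2.29% (1.34 to 3.64) and 2.73% (1.95 to 3.72) of CD4 cells, from 713 and 862 assigned CD8 and 742 and 1427 assigned CD4 cells. It was the only one of 17 families compared that was at least 2-fold higher in either class in both libraries. Trav14 was the most used family of CD4 cells at 22.1% (19.2 to 25.3) and 17.7% (15.8 to 19.8), against 12.6% (10.3 to 15.3) and 11.3% (9.22 to 13.6) in CD8 cells, with intervals apart in both libraries. Other families had intervals apart in 1 library only. In vehicle these were Trav3 (7.57% of CD8 against 3.91% of CD4 cells), Trav4 (2.81% against 6.33%) and Trav17 (0% against 1.21%, 0.556 to 2.29). In RP-6306 they were Trav6 (8.82% against 13.1%), Trav9 (6.38% against 10.9%), Trav8 (8.12% against 4.77%) and Trav12 (10.3% against 6.87%). Trav7 and Trav13 had overlapping intervals in both. The Trav17 family was assigned to 0 of 713 vehicle CD8 cells, which allows a share of up to 0.516% (exact interval), to 1.62% of RP-6306 CD8 cells, and to 1.21% and 0.981% of CD4 cells; 5 Trav17 UMIs lay in vehicle CD8 cells that were tied or assigned another family.

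Levels of single alpha genes carry the lower Trav sum of CD8 cells given above. By edgeR's quasi-likelihood test with Benjamini-Hochberg adjustment, Trav16 was higher in CD8 than in CD4 cells by log2 1.20 (SE 0.25, adjusted p = 3.4e-05) and its copy Trav16n by 0.94 (SE 0.23, adjusted p = 0.00037); in DESeq2 neither passed, at adjusted p = 0.37 and 0.46. Trav14-3, Trav14d-3-dv8 and Trav14n-3 were lower in CD8 cells, at log2 differences of -1.93, -1.87 and -1.57. Outside these families, Trav9-1 was lower by the same test at -2.15 (SE 0.22, adjusted p = 4.5e-18) and Trav4-4-dv10 at -1.64. Near-identical copies share reads, so the split between the copies of a family is uncertain.

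**Figure D3:**
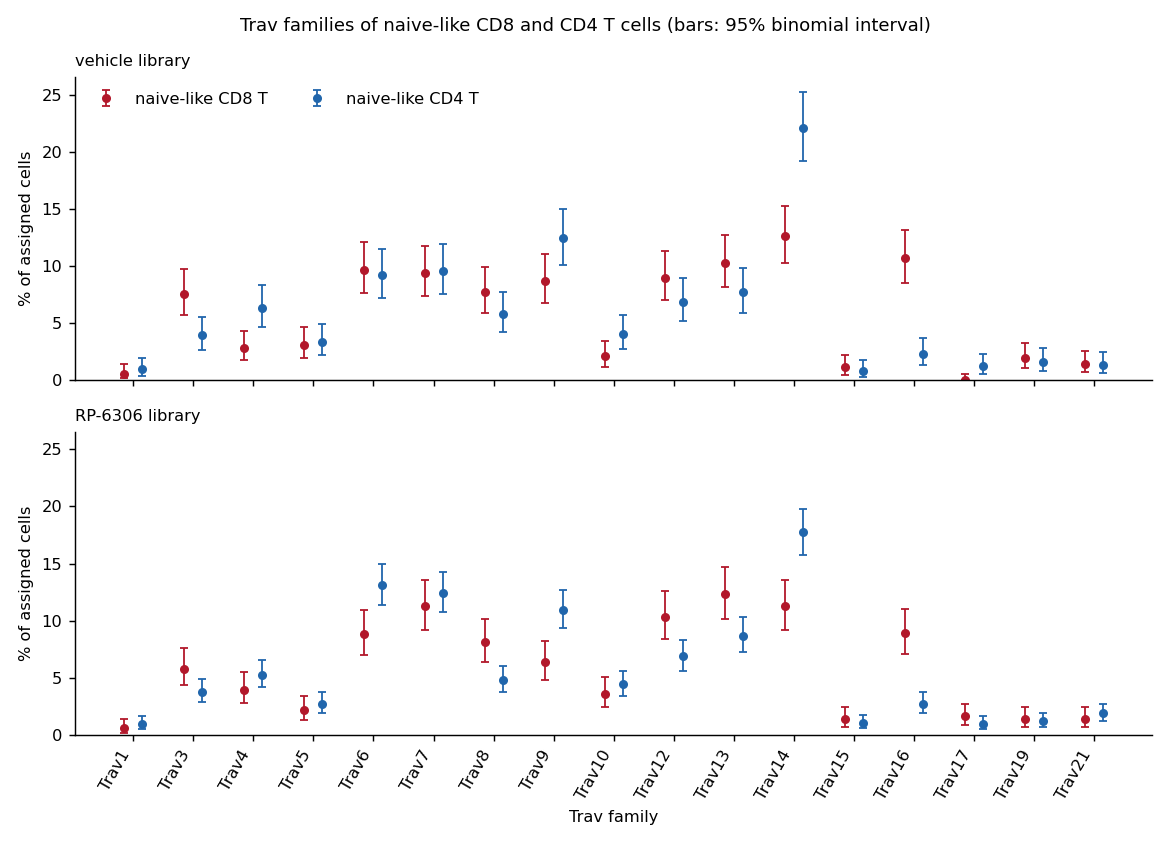
Share of naive-like CD8 (red) and CD4 (blue) T cells assigned to each Trav family, in percent of the assigned cells, with exact 95% binomial intervals; the vehicle library is above and the RP-6306 library below. Trav16 is at 10.7% of CD8 and 2.29% of CD4 cells in the vehicle library, and Trav14 at 12.6% and 22.1%.

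Memory CD8 T-like cells shared Trbv16 and Trbv12-1 with naive-like CD8 cells among their 4 most used beta genes. Trbv16 led in vehicle (10.8% of 371 assigned cells, 7.82 to 14.4), followed by Trbv13-1 (9.97%), Trbv13-2 (9.16%) and Trbv12-1 (8.89%). In RP-6306, Trbv12-1 and Trbv12-2 had 11.3% of 212 cells each, and Trbv13-2 and Trbv16 8.96%. No Trbv gene reached 2-fold over the naive-like share with 10 or more cells in either library. Trav5 did in vehicle, at 6.67% (3.60 to 11.1) against 3.09% (1.94 to 4.63), with overlapping intervals. In edgeR's quasi-likelihood test over naive-like CD8 cells, 5.68% of all genes rose and 2.03% fell, and of 57 members 1 rose and 4 fell. Trbv29 rose by log2 0.44 (adjusted p = 0.034 after Benjamini-Hochberg in edgeR), from 52.1 and 72.6 to 68.4 and 92.3 CPM, and Trbv1, Trbv13-3, Trbv15 and Trav9-2 fell by 0.83, 0.69, 0.68 and 2.1. DESeq2 called 0 of 108 members in either direction, with 4 at an unadjusted p under 0.05. Of all 18733 genes it called 234 higher and 57 lower.

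As a pooled class, regulatory T-like cells had lower levels of variable and constant genes than naive-like CD4 cells. Trbv genes summed to 514 and 726 CPM there, against 927 and 1164 CPM in naive-like CD4 cells, and Trbc1 and Trbc2 to 502 and 598 against 954 and 974 CPM. Trav genes summed to 297 and 391 against 365 and 525 CPM, and Trac stood at 296 and 358 against 362 and 425 CPM. The alpha chain was not lower throughout the class. In the activated cluster T0, Trac was at 436 and 647 CPM and Trav genes at 381 and 509 CPM. In the shallow cluster T5, Trac was at 61.4 and 201 CPM and Trav genes at 157 and 327 CPM. In edgeR's quasi-likelihood test, 12.6% of all genes rose and 9.37% fell, and of 58 members 1 rose and 21 fell. Trbv13-1 fell by log2 2.44 (SE 0.26, edgeR Benjamini-Hochberg adjusted p = 3.4e-19), from 73.3 and 92.4 to 6.38 and 35.3 CPM, and Trbv31, Trbv16 and Trbv3 fell by 2.06, 1.93 and 1.66. The 1 that rose, Trav1 (edgeR adjusted p = 0.024), rested on 16 UMIs in 3 vehicle cells and 0 in RP-6306. DESeq2 called 0 of 108 members higher and 5 lower, and of all 18684 genes 473 higher and 228 lower.

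By share of assigned cells, Trbv12-2 was higher in the regulatory class of both libraries: 6.80% (3.31 to 12.2) of 147 vehicle cells against 3.17% in naive-like CD4, and 9.91% (5.05 to 17.0) of 111 RP-6306 cells against 2.37% (1.77 to 3.10). The intervals were apart in RP-6306 only. In the vehicle library, the activated cluster T0 was led by Trbv1, with 20 of 105 cells (19.0%, 12.0 to 27.9) against 8.50% (6.98 to 10.2) of naive-like CD4 cells. Trbv26 followed the same way, with 11 of 105 (10.5%, 5.35 to 18.0) against 3.75% (2.75 to 4.99). In the RP-6306 library, T0 had 27 assigned cells, of which Trbv13-2 held 6 (22.2%, 8.62 to 42.3) and Trbv1 held 3 (11.1%, 2.35 to 29.2). The shallow cluster T5 was led by Trbv13-2 in vehicle (7 of 42) and by Trbv3 in RP-6306 (9 of 84). Its alpha families were led by Trav14 in both libraries (7 of 32 and 9 of 55), the leading family of naive-like CD4 cells, while T0 was led by Trav6 and Trav9 (15 of 82 vehicle cells each, 18.3%). Trav13 in vehicle T0 was at 15.9% (8.72 to 25.6), against 7.68% in naive-like CD4, with overlapping intervals.

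Effector T-like cells as a whole showed no leading beta gene: in vehicle Trbv16 and Trbv19 had 10.2% of 157 cells each, and in RP-6306 Trbv3 had 12.5% of 64. Divided by coreceptor, the Cd8+ effector cells of the vehicle library were led by Trbv29, with 13 of 67 cells (19.4%, 10.8 to 30.9) against 6.85% (5.57 to 8.31) of naive-like CD8 cells. Trbv12-2 followed with 11 of 67 (16.4%, 8.49 to 27.5) against 7.72% (6.36 to 9.26), with overlapping intervals. In the RP-6306 library, 34 Cd8+ effector cells were assigned, led by Trbv12-1 with 6 (17.6%, 6.76 to 34.5). Trbv29 had 8 UMIs in 1 cell of the whole RP-6306 effector class, against 68 UMIs in 15 vehicle cells. Cd4+ effector cells of the vehicle library were led by Trbv3, the leading gene of naive-like CD4 cells, with 11 of 60 (18.3%, 9.52 to 30.4). The 19 assigned Cd4+ effector cells with RP-6306 were led by Trbv13-2 (5 cells).

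The NK receptor T cluster had 2 over-used genes by the same measure. In RP-6306, Trbv12-2 was assigned to 15 of 78 cells (19.2%, 11.2 to 29.7) against 6.76% (5.53 to 8.16) of naive-like CD8 cells, and in vehicle to 18 of 145 (12.4%, 7.53 to 18.9) against 7.72%. The Trav13 family held 19 of 80 vehicle cells (23.8%, 14.9 to 34.6) against 10.2% (8.11 to 12.7), and 11 of 52 RP-6306 cells (21.2%, 11.1 to 34.7) against 12.3%. In edgeR's quasi-likelihood test over naive-like CD8 cells, 8.21% of all genes rose and 6.40% fell, and of 53 members 4 rose and 9 fell. Those that rose were Trbv12-2 by log2 0.82 (SE 0.16, edgeR Benjamini-Hochberg adjusted p = 3.7e-06), and Trav13-4-dv7, Trav15-2-dv6-2 and Trav13-2 by 2.1, 2.5 and 1.82. Trbv16 fell by 1.26, from 95.8 and 128 to 52.0 and 41.3 CPM. DESeq2 called 0 of 107 members higher and 1 lower, with 8 members at an unadjusted p under 0.05. Of all 18477 genes it called 342 higher and 200 lower.

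Over-use can be put in 1 number, the effective number of beta genes: the inverse of the share of cell pairs of a class that have the same Trbv gene. It was 15.7 and 16.0 in naive-like CD8, 15 and 14.6 in naive-like CD4, and 14.5 and 13.9 in memory CD8 T-like cells. Regulatory T-like cells had 13.4 and 15.9, effector T-like cells 15.3 and 16.4, interferon T-like cells 15.1 and 16.9, and the NK receptor T cluster 13.4 and 13.9. Within the regulatory class, the activated cluster T0 had 11.4 and 11.7 and the shallow cluster T5 had 14.1 and 17.1. Within the effector class, Cd8+ cells had 10.7 in vehicle, from 67 cells, and 15.6 in RP-6306, from 34, and Cd4+ cells had 14.2 in vehicle. Counted by alpha family, naive-like CD8 cells had 11.8 and 11.9, naive-like CD4 cells 9.60 and 10.2, and Cd8+ effector cells 12.2 and 9.24, the opposite order of the libraries to that of the beta genes.

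Pairs of an alpha family and a beta gene in the same cell were counted next, since cells of a clone share both. In naive-like CD8 cells, the most frequent pair was found in 10 of 571 and 11 of 681 cells with both assigned, and in naive-like CD4 cells in 17 of 577 and 28 of 1127, the last being Trav14 with Trbv3 against 21.4 from the product of the single shares. Among effector cells, 1 pair stood apart. In Cd8+ effector cells of the vehicle library, Trav4 with Trbv29 was found in 6 of 42 cells (14.3%, 5.43 to 28.5) against 1.29 from the product. All 6 held UMIs of the single gene Trav4-4-dv10, 16 in all, and 20 UMIs of Trbv29, between 2 and 9 per cell, with no other Trbv gene. Trav4-4-dv10 was counted as the leading alpha gene in 5 of the 6, and Trav4-3 was the other Trav4 gene listed among them. All 6 had Trbc2 and 0 of 6 Trbc1, the other beta constant gene, which was seen in 19 of the other 73 Cd8+ effector cells. Pdcd1, the checkpoint receptor of activated T cells, was seen in 5 of the 6 and in 14 of the other 73, and Mki67, a gene of dividing cells, in 0 of 6 and in 16 of 73. Other effector genes were seen in like shares of both sets: Gzmk in 3 of 6 and 37 of 73, Gzmb in 3 and 38, and Havcr2 and Tnfrsf9 each in 2 and 23. Median depth was 3248 UMIs in the 6 and 3755 in the others.

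Elsewhere the Trav4 and Trbv29 pair was rare. It was found in 2 of 165 vehicle memory CD8 T-like cells, both with Trav4-4-dv10, in 2 of 571 and 1 of 681 naive-like CD8 cells, and in 0 of 35 effector and 0 of 118 memory cells with RP-6306. The 35 effector cells held 33 different pairs, 31 of them in 1 cell. Other pairs found in 3 or more cells, and above the product, held either 1 alpha gene of the family or several. In vehicle regulatory T-like cells, Trav13 with Trbv26 was in 4 of 70 cells (5.71%) against 1.03, 3 of them with Trav13d-1. All 4 lay in the activated cluster T0, and 1 of them had a Foxp3 UMI, against 65 of the other 334 regulatory T-like cells of both clusters. In the vehicle effector class, Trav9 with Trbv16 was in 4 of 92 cells against 0.848, spread over Trav9-2, Trav9-4 and Trav9n-4, and Trav7 with Trbv19 was in 3 against 1.13, all with Trav7-3. In vehicle Cd4+ effector cells, Trav7 with Trbv3 was in 3 of 33 cells against 0.758, all with Trav7-1. In the NK receptor T cluster with RP-6306, Trav14 with Trbv12-2 was in 3 of 42 cells against 1.71, all with Trav14n-3. The largest pair count with RP-6306 was 2 of 35 cells in the effector and 2 of 53 in the regulatory class. As a share, the largest effector pair held 5.71% (0.700 to 19.2) with RP-6306 and 6.52% (2.43 to 13.7) of 92 cells in vehicle. These pairs were picked as the most frequent of their class after the counts were known, so the counts are a description.

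**Figure D4:**
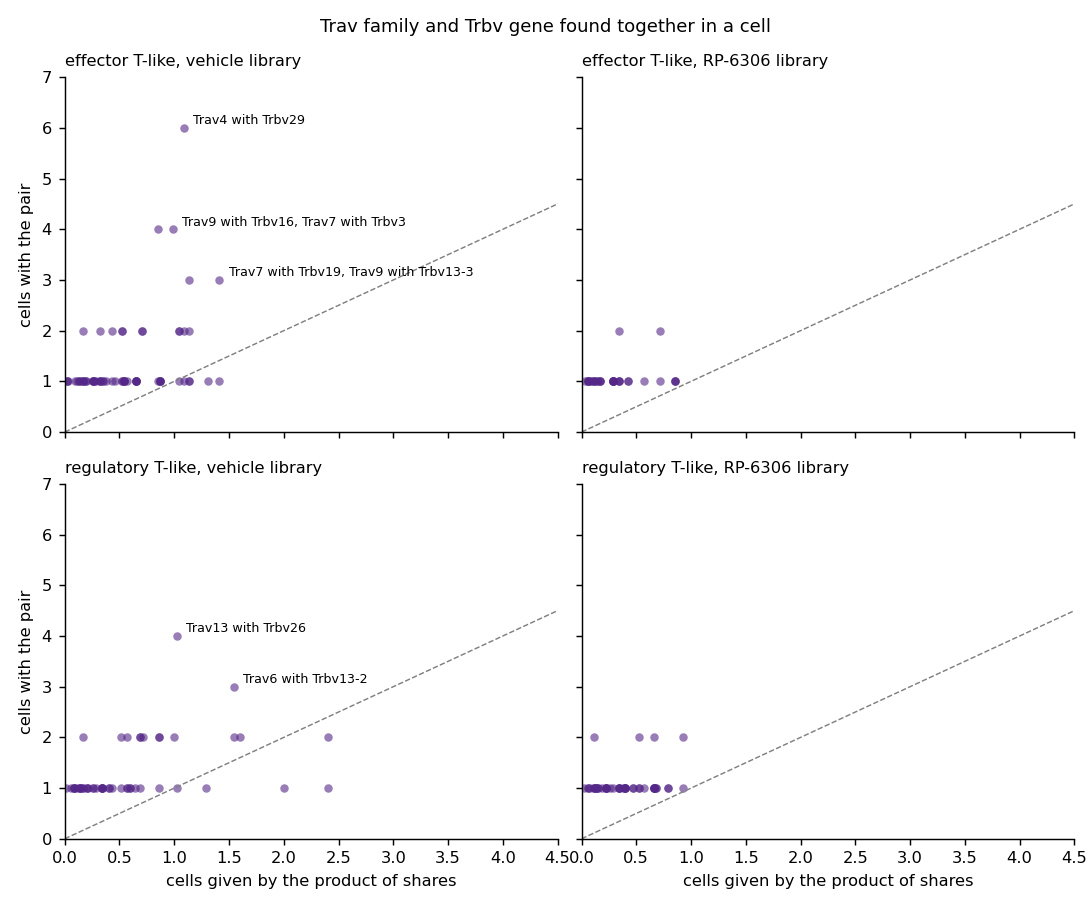
Each point is a pair of a Trav family and a Trbv gene, with the number of cells in which both were assigned (vertical) against the number given by the product of the single shares (horizontal), for effector and regulatory T-like cells of each library. Trav4 with Trbv29 lies at 6 of 92 vehicle effector cells (6.52%, 2.43 to 13.7). The largest count in RP-6306 effector cells is 2 of 35 (5.71%, 0.700 to 19.2).

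Levels of single variable genes were then compared between the libraries within each class, RP-6306 over vehicle. The intervals of these log2 differences take every UMI as independent. UMIs of 1 cell are not, so an interval is too narrow where few cells hold the UMIs. A member counted as different at 2-fold on the log2(CPM + 1) scale, with at least 20 UMIs over both libraries. A member at or near 0 in 1 library passed that minimum through the other library alone. The counts past 2-fold include such members. In naive-like CD8 cells, 9 of 69 members were at least 2-fold higher, against 0.419% of all genes, and 0 were 2-fold lower, against 1.79%. The median over the members was 0.42 and over all genes 0.04. In naive-like CD4 cells, 9 of 79 were 2-fold higher (0.656% of all genes) and 0 lower (1.93%), with medians of 0.49 and 0.03. These medians stand beside the higher ratio of variable to constant UMIs given above. With a pseudocount of 10 CPM, 0 members were 2-fold higher in either class.

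Trav12-3 was among the highest in both naive-like classes. In CD8 cells it had 21 UMIs in 16 vehicle cells and 76 in 31 RP-6306 cells, a log2 difference of 1.68 (1.20 to 2.68), and in CD4 cells 30 UMIs in 19 cells and 127 in 54, a difference of 1.34 (0.88 to 2.09). In memory CD8 T-like cells it had 17 UMIs in 9 vehicle cells and 4 in 2 RP-6306 cells, a difference of -1.08 whose interval includes 0. Trav13-4-dv7 had 15 UMIs in 10 CD8 cells and 62 in 31 (1.78, 1.27 to 3.02), and Trav17 had 5 in 5 and 32 in 18 (1.89). In CD4 cells, Trav6-2 had 3 and 26 UMIs (1.55) and Trav7d-4 had 10 and 47 (1.29). The lowest in CD8 cells were Trav6-1 (17 and 8 UMIs, -0.71, an interval that includes 0), Trbv4 (73 and 45, -0.59, -1.21 to -0.09) and Trav14-2 (59 and 37, -0.55). In CD4 cells they were Trbv12-1 (82 and 88 UMIs, -0.49, -0.97 to -0.07), Trav7n-4 and Trav14-2, the last 2 with intervals that include 0. The beta genes used most differed less: Trbv16 had 95.8 and 128 CPM in CD8 cells, a log2 difference of 0.42, and Trbv3 had 84.9 and 114 CPM in CD4 cells, also 0.42.

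**Figure D5:**
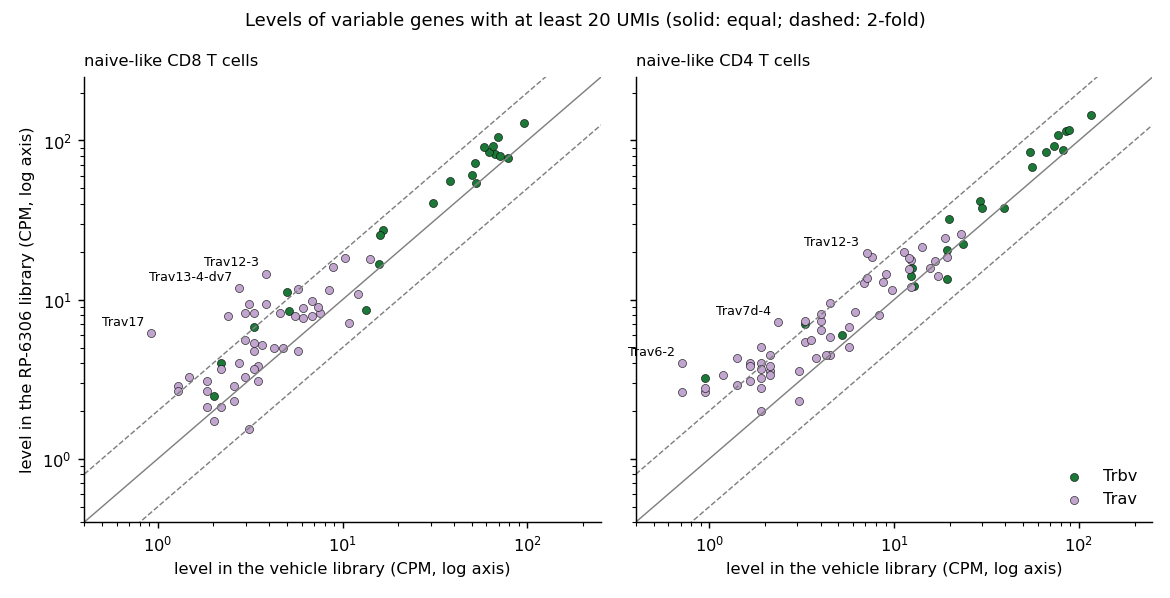
Level of each Trbv and Trav gene with at least 20 UMIs in the RP-6306 library (vertical, CPM, log axis) against the vehicle library (horizontal, CPM, log axis), in naive-like CD8 and CD4 T cells. Most points lie above the line of equal levels; Trav12-3 is at 3.87 and 14.6 CPM in CD8 cells.

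In the smaller classes, the levels rested on few cells. Of 31 memory members, 5 were 2-fold higher (0.812% of all genes) and 3 lower (2.49%). Trav4-4-dv10 had 23 UMIs in 9 vehicle memory cells and 0 with RP-6306, so it passed the minimum through the vehicle library alone. Trbv17 had 90 UMIs in 14 cells and 18 in 5, of which 1 cell held 77.8% (log2 difference -1.45). Trbv26 had 18 and 32 UMIs (1.56), Trav13-1 had 19 and 31 (1.44) and Trav7-5 had 9 and 15 (1.39). Of 16 regulatory members, 6 were 2-fold higher (2.50%) and 2 lower (3.80%). This class pooled 166 T0 and 172 T5 cells in vehicle but 42 and 188 in RP-6306, so its levels also carry that difference in mix. Of the 12 vehicle regulatory cells assigned Trbv26, 11 lay in T0. Trbv26 had 40 UMIs in 13 vehicle cells and 1 with RP-6306 (-4.02, -9.87 to -1.97), and Trbv20 had 21 and 3 (-1.87). Both passed the minimum through the vehicle library alone. Trbv12-1 had 6 and 19 UMIs (2.31), Trbv13-1 had 5 and 16 (2.30, 1 cell holding 68.8% of the latter) and Trbv3 had 13 and 30 (1.93).

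Of 22 effector members, 7 were 2-fold higher (2.74%) and 5 lower (4.34%). Trav14-3 had 30 UMIs in 7 vehicle cells and 0 with RP-6306, so it passed the minimum through the vehicle library alone. Trbv13-1 had 102 UMIs in 14 cells and 11 in 5 (-1.84). Trbv29 had 68 in 15 and 8 in 1 (-1.70, -3.01 to -0.68), so its interval rests on 1 cell with RP-6306. On the other side, Trbv14 had 7 UMIs in 2 cells and 20 in 5 (2.73), Trbv17 had 19 in 5 and 43 in 6 (2.48) and Trbv20 had 12 in 3 and 19 in 7 (1.94). Of 20 interferon members, 8 were 2-fold higher (2.60%) and 0 lower (1.70%). Trav14-3 had 0 and 27 UMIs there, the opposite direction to the effector class, and passed the minimum through the RP-6306 library alone. Trav9-1 had 4 and 23 UMIs in the interferon class (1.82). Of 13 members in the NK receptor T cluster, 3 were 2-fold higher (2.13%), Trbv29, Trbv13-1 and Trbv1 at 1.25, 1.09 and 1.08, and 1 was lower (3.15%). This was Trbv3, with 64 UMIs in 19 vehicle cells and 4 in 3 with RP-6306 (-2.91, -4.93 to -1.58).

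The rest of the receptor complex had medians nearer to those of all genes. Of a list of 28 genes of the receptor, its signalling and its recombination, 26 were measured in naive-like CD8 cells, 19 higher and 7 lower in RP-6306, with a median log2 difference of 0.12 and 0 past 2-fold. In naive-like CD4 cells 17 were higher and 9 lower, with a median of 0.16 and 1 lower past 2-fold. Cd3d, Cd3e and Cd3g, the signalling chains that carry the receptor to the surface, differed by 0.18, 0.09 and 0.21 in CD8 and by 0.33, 0.15 and 0.25 in CD4 cells. The alpha constant gene Trac differed by 0.18 and 0.23, Trbc2 by 0.07 and 0.04, Trbc1 by 0.17 and -0.04, and the zeta chain Cd247 by 0.05 and -0.04. In effector T-like cells the list's median was 0.10 and in regulatory T-like cells 0.07. The early response genes of receptor signalling differed in opposite directions: Egr1 was lower in RP-6306 in naive-like CD8 (-0.79), naive-like CD4 (-0.73) and regulatory T-like cells (-1.23, 78 and 19 UMIs), and Nr4a1 was higher there, by 0.80, 0.38 and 0.98. Past 2-fold were Egr1 in regulatory cells, Cd8a in naive-like CD4 cells (19 and 11 UMIs, -1.03) and Nr4a1 in interferon T-like cells (11 and 40 UMIs, 1.25). Egr1, Nr4a1 and Cd8a were picked from the list after their values were seen. The delta constant gene Trdc, which gamma delta cells use in place of Trac, was at 5.71 and 6.13 CPM in naive-like CD8 cells and at 55.0 and 88.6 CPM in the NK receptor T cluster.

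Segments of invariant T cells were rare. Trav11, with its copy Trav11d identical to it over the aligned bases, is the segment of invariant natural killer T cells, and both had 0 UMIs in these cells; the copy Trav11n had 4 UMIs in 3 of 1762 vehicle and 2 in 2 of 1867 RP-6306 naive-like CD8 cells. Since near-identical copies share reads, the 0 cannot be read as absence. Trav1 was seen in 0.341% and 0.482% of naive-like CD8 and in 0.506% and 0.652% of naive-like CD4 cells. In the gamma delta T-like cluster it was seen in 5 of 45 vehicle cells (11.1%, 3.71 to 24.1) and 0 of 17 RP-6306 cells. Of these 5, 0 had a Trdc UMI, against 15 of the other 57 cells of the cluster, while 3 of the 5 had Zbtb16, the transcription factor of innate-like T cells, against 39 of 57. A Trbv UMI was seen in 2 of the 5 and 25 of the 57, and a Trac UMI in 2 and 16. UMIs of an alpha segment and of the delta constant gene were thus both seen in this cluster. Whether they mark separate kinds of cell was not tested, and 5 cells are few.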

How the data were processed

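The authors deposited 1 matrix of counts (UMIs per gene and barcode, not normalized) per library; Cell Ranger 2.1.1 and build mm10 were used per the submitters' processing notes, without their roles; the sources used here do not give the calling of cells from barcodes. Cells needed at least 500 UMIs, 300 genes and at most 15% mitochondrial UMIs. Scrublet's automatic threshold marked 1 vehicle and 0 RP-6306 barcodes, so the top 6% of scores per library (1026 and 952) were removed instead; doublets remain, and clusters with both T and B markers (1533 and 1139 cells) were left out of the T classes. Clusters (scanpy 1.11.5, Leiden, resolution 1, without antigen receptor genes, T and NK cells clustered again) were named from fixed markers. A cell was assigned its Trbv gene, or Trav family, with most UMIs. Shares carry exact Clopper-Pearson 95% intervals over cells, for counting error only. Log2 ratios carry exact conditional binomial ones over UMIs, which leave out that UMIs of 1 cell are not independent. Reads without a joined region cannot name clones. A V gene pair was counted where a cell had both assignments. Class differences were tested with edgeR 4.0.16's quasi-likelihood fit on summed counts (TMM, filterByExpr, terms library and class, Benjamini-Hochberg over all genes), added after seeing the data, with DESeq2 1.42.0 as an alternative. On simulated counts, edgeR called 93.4% of genes changed 3-fold between CD8 and CD4 sums of 11163 genes. It called 74.2% for memory (10367 genes), 70.5% for regulatory (10212) and 59.9% for NK receptor T cluster sums (10200). The simulation gave every gene the same fixed dispersion and changed only genes with at least 20 UMIs. Its rates therefore need not hold for the members. Named are the 4 most used Trbv genes and Trav families and 3 most frequent pairs per class, the genes with 2-fold over-use in at least 10 cells, the 3 highest and lowest log2 ratios, and Trav1, Trav11, Trbv31 and the constant and Cd3 genes, as far as they bear on a result. The members, lists and classes were chosen with earlier results of these data known.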

Additional observations from a re-analysis of the deposited data

How the results depend on the processing

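Of 143 recomputed values that answer a comparison, 122 stayed within their error or within 1.5 times their count and 21 did not. Of 287 further ones, 261 did and 26 did not. The log2 shares of named genes in CD8 over CD4 kept their direction wherever computed. For levels between the libraries, a change of direction was recorded only where the main difference was at least 2-fold. A larger pseudocount or UMI minimum cannot change that direction, so levels give little information on it. Thinning to 2000 UMIs, with shallower cells left out, gave Trbv detection of 73.8% and 78.7% in naive-like CD8 and 73.5% and 79.3% in naive-like CD4 cells. In RP-6306 CD4 cells gates on single cells gave 82.979% and a minimum of 1000 UMIs 82.969%. The count of Trbv genes at least 2-fold higher in CD4 went from 2 to 1 with gates, with at least 2 UMIs of the assigned gene and with shares of UMIs. Trbv31 kept a log2 share in CD8 over CD4 between -2.74 and -1.33 and Trbv2 between -3.59 and -0.59 over all settings. Counted by Trbv family, the effective number was 9.22 and 9.08 in naive-like CD8 and 9.31 and 9.47 in naive-like CD4 cells. The Trav4 and Trbv29 pair was 1.43% of the cells with both assigned when effector CD8 cells were gated, a wider class of 628 such cells, and the Trav13 and Trbv26 pair was 0 of 18 with at least 2 UMIs per gene. A pseudocount of 10 CPM left 0 members 2-fold higher in naive-like CD8 and 0 in CD4 cells, and a minimum of 50 UMIs left 3 in CD4. Scaling to Trac, Trbc1 and Trbc2 UMIs gave 1 lower in CD8 and 15 higher in CD4. The pseudocount of 1 was kept on that scale, where levels are far larger than in CPM. It therefore shrank ratios less than in the main setting, and the counts hold both changes together. The share of all genes was not computed under these settings. DESeq2, chosen after seeing the data, called 10 members lower in CD8 than in CD4 against 31. Over all genes it also called fewer, 353 of 19750 against 1374 of 11186. The cause of these changes was not tested. At resolution 0.6 no effector class was named, so that setting gives no effector value. No paired analysis was possible because each group has 1 library. Few cells limit pairs: 35 effector and 53 regulatory T-like cells with RP-6306 had both chains, and a Trav UMI was seen in 44.3% to 57.7% of naive-like cells.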
